A study of Mus musculus with 18 samples.

Results

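Collagen crosslinking enzymes were described as the 8 mouse genes of the lysyl oxidase family (Lox, Loxl1, Loxl2, Loxl3 and Loxl4) and of the lysyl hydroxylase family (Plod1, Plod2 and Plod3). They were chosen by gene symbol, and all 8 were found among the 51290 genes of the count table. RNA from 18 tissue samples in 3 groups of 6 was sequenced in bulk after poly(A) selection. Malignant peripheral nerve sheath tumours (MPNST) were Nf1 flox/flox and Arf flox/flox with PostnCre+. Plexiform neurofibromas, which are benign nerve tumours, were trigeminal nerves of Nf1 flox/flox animals with PostnCre+. Normal nerves were trigeminal nerves of Nf1 flox/flox animals that were PostnCre-. Floxed Nf1, which encodes the RAS regulator neurofibromin, was thus shared by all 3 groups. The Cre is driven by the promoter of Postn, a gene active in the Schwann cell lineage and in mesenchymal cells, and Arf is one product of the Cdkn2a locus. Ages are not given in the labels, nor is the body site of the MPNST. The labels trace the neurofibroma and nerve samples, but not the MPNST, to an earlier series, so the tumour type, the site and the series cannot be told apart in the comparisons with MPNST.

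Collagen chains are modified before and after they leave the cell. Lysyl hydroxylases act in the endoplasmic reticulum and hydroxylate lysine residues of procollagen, which sets which crosslinks can form and where sugars are attached. Lysyl oxidases are copper-dependent amine oxidases that act outside the cell, turning lysine and hydroxylysine residues of collagen and elastin into aldehydes that condense into covalent crosslinks. In peripheral nerve the crosslinked collagen lies in the endoneurium, perineurium and epineurium, and plexiform neurofibromas are known as collagen-rich tumours.

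Levels are given as CPM, a gene's count relative to its library's total after that total was scaled by the trimmed mean of M values (TMM). A gene was called where the edgeR quasi-likelihood test gave a Benjamini-Hochberg adjusted p below 0.05 over all genes tested. Library totals were 13886399 to 23652959 counts for MPNST, 15307987 to 20056513 for neurofibroma and 14303986 to 20335697 for nerve. Nf1 ran from 42.5 to 112.8 CPM in MPNST, from 63.7 to 87.5 CPM in neurofibroma and from 79.9 to 155.9 CPM in nerve. The library labelled MPNST 6 held the 112.8 CPM and so lay above every neurofibroma library. Counts summed over the gene do not show whether the floxed gene was recombined, and whether that label is right was not tested. Cdkn2a, whose counts do not separate Arf from Ink4a, ran from 0.289 to 10.45 CPM in 5 MPNST and reached 615.6 CPM in MPNST 4. Libraries of all 3 groups held transcripts of other tissues. MPNST 2 held the salivary gland gene Bpifa2 at 539300 CPM, MPNST 3 the muscle gene Acta1 at 12240 CPM, and the library labelled MPNST 6 the catecholamine gene Th at 1595 CPM with the pancreatic gene Ctrb1 at 1094 CPM. Neurofibroma 1 held 6 skeletal muscle markers at a sum of 1458 CPM and 5 adipocyte markers at 516.9 CPM, sums that did not pass 4.97 CPM in any other neurofibroma. Those adipocyte markers summed to 2.44 to 840.3 CPM in MPNST, against at most 5.13 CPM in nerve. The highest MPNST sum was in MPNST 1, and MPNST 5 held 409.4 CPM. By these adipocyte sums MPNST 1 and 5 were not free of other tissues, though Fabp4 alone made up 654.7 CPM of the sum in MPNST 1. MPNST 1 also held 5 B and plasma cell markers at 621.0 CPM, against 2.24 CPM in MPNST 5. Whether those cells came from other tissue or lay in the tumour was not tested. Nerve 3 held the muscle markers at 356 CPM. Nerve 6 held 6 oligodendrocyte and astrocyte markers at 632.5 CPM, the highest of nerve, against 85.4 to 386.5 CPM in the other nerves. Of these markers, Gfap and Mag had nerve medians of 98.6 and 79.1 CPM, so they were not particular to nerve 6. Mog and Opalin did not pass 40.1 and 13.99 CPM in nerve. The 7 Schwann cell markers summed to 58.4 to 1181 CPM in MPNST, 5793 to 10370 CPM in neurofibroma and 2500 to 5986 CPM in nerve. The 7 sensory neuron markers summed to 3.005 to 11.95 CPM in MPNST 1 to 5 and to 1348 CPM in the library labelled MPNST 6. They summed to 2419 to 3544 CPM in neurofibroma and 1543 to 3819 CPM in nerve. Of the 1348 CPM, Prph made up 631.8, Isl1 492.7 and Scn9a 205.7 CPM. Scn10a, Calca and Trpv1 did not pass 2.45 CPM in any MPNST, and Avil did not pass 16.8 CPM, so that sum is no sign of sensory neurons at the level of nerve. The 7 fibroblast and perineurium markers summed to 122 to 1556 CPM in MPNST, 234.7 to 324 CPM in neurofibroma and 205 to 284 CPM in nerve. Of the highest sum, in MPNST 4, Pdgfra alone made up 1332 CPM. The part of these cell types and tissues in the changes below was not tested, and in bulk tissue fewer cells of a type and less RNA per cell cannot be told apart.

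In neurofibroma against nerve, 3 of the 8 enzymes rose: Lox, Loxl2 and Plod1. Of all 16464 genes tested in that comparison, 7.94% rose. In MPNST against neurofibroma 4 of 8 rose, namely Loxl1, Loxl2, Loxl3 and Plod2, where 25.3% of 16537 tested genes rose. In MPNST against nerve 7 of 8 rose, all but Loxl4, where 27.6% of 16384 tested genes rose. No enzyme was lower at an adjusted p below 0.05 in any comparison by edgeR, DESeq2 or limma-voom, and 0 were lower at an unadjusted p below 0.05. Of all tested genes, 16.8% fell in MPNST against neurofibroma, 18.4% in MPNST against nerve and 6% in neurofibroma against nerve. The 2 comparisons with MPNST share their MPNST libraries, and each group enters 2 of the 3 comparisons. The median log2 change of all tested genes was 0.22 in both comparisons with MPNST and -0.02 in neurofibroma against nerve, so small changes in MPNST are read against 0.22.

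**Figure D1:**
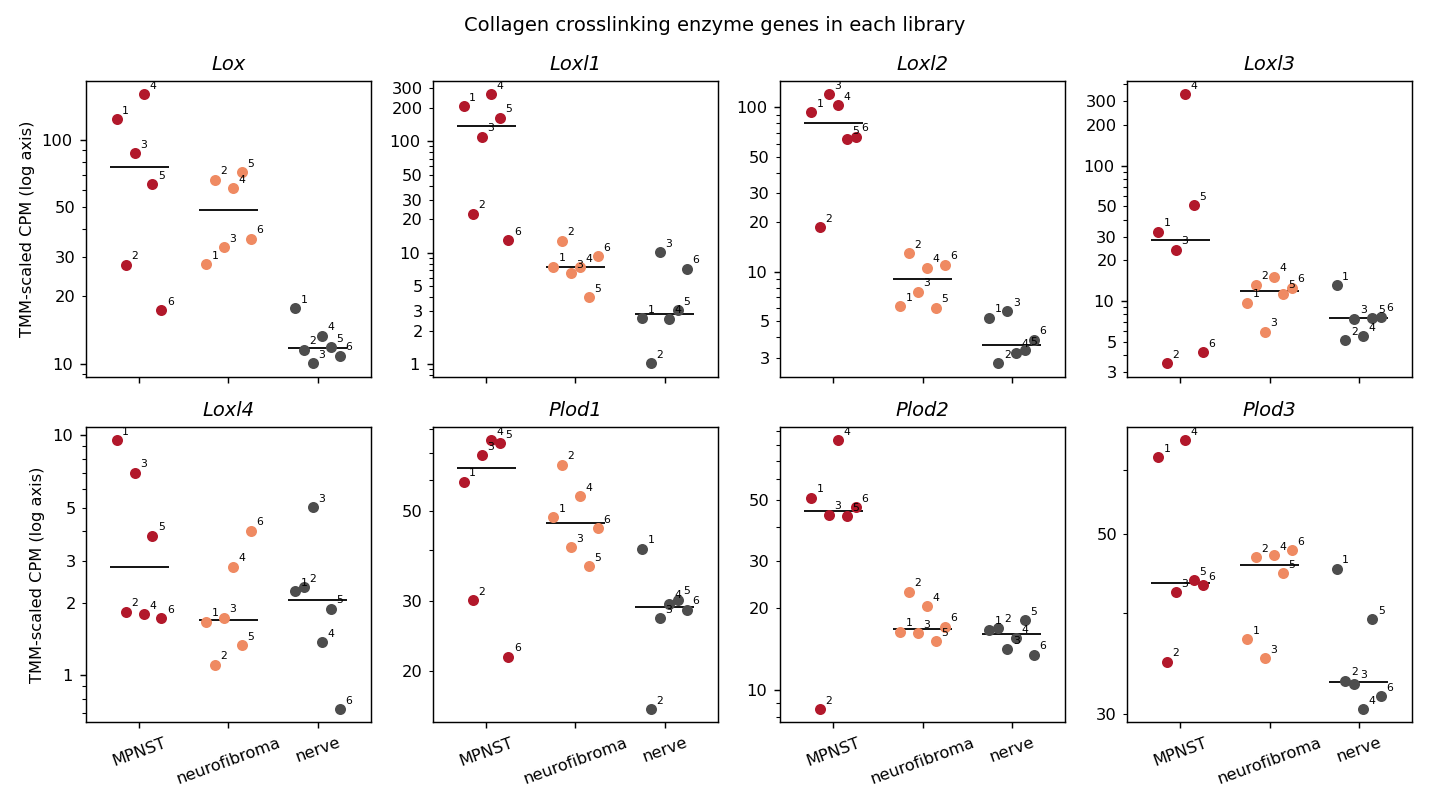
TMM-scaled CPM (log axis) of each enzyme gene in the 6 MPNST, 6 neurofibroma and 6 nerve libraries; points carry the library number and lines mark group medians. Lox separates neurofibroma (27.8 to 71.9 CPM) from nerve (10.0 to 17.7 CPM). On this scale Loxl1 and Loxl2 separate MPNST from both other groups.

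The catalytic part of the lysyl oxidases binds copper through histidines in a short conserved stretch, and its coding sequence shows how close the family members are to each other. The stretch was found in transcripts of all 5 genes (33 bases, GENCODE M21 on GRCm38, sense strand, 5′ to 3′), and it is shown for 4 of them with the 4 histidine codons in capitals.
Loxl1 (chromosome 9): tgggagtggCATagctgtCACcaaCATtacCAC
Loxl2 (chromosome 14): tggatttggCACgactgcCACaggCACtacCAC
Loxl3 (chromosome 6): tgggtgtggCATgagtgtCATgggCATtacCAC
Loxl4 (chromosome 19): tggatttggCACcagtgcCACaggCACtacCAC
Lox and Loxl1 share 32 of the 33 bases, and Loxl2 and Loxl4 share 31. The other 8 pairs share 21 to 25. Outside such stretches the genes differ: at most 17 of a member's 31-base words occur in another member, so their counts are little exposed to one another. Loxl2 has a near copy elsewhere, the pseudogene Gm21451, which with other genes holds 46.21% of its 31-base words. Gm21451 itself had 0 to 7 counts in MPNST, 0 to 4 in neurofibroma and 0 to 3 in nerve, yet how reads were split between the 2 makes Loxl2 counts less certain than those of the other members.

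Lox, the founding lysyl oxidase, which crosslinks fibrillar collagen and elastin, was the enzyme with the largest rise in neurofibroma. Its level ran from 27.8 over a median of 48.6 to 71.9 CPM in neurofibroma, against 10.0, 11.7 and 17.7 CPM in nerve. All 6 neurofibroma libraries lay above all 6 nerve libraries, as was so for 4.57% of tested genes, and the fitted change was 1.96 ± 0.25 (log2, SE; 3.89-fold, adjusted p = 0.00166). In MPNST Lox ranged more widely, with a lowest value of 17.3, a median of 75.5 and a highest of 159.8 CPM. MPNST 1, 3 and 4 exceeded every neurofibroma library, while MPNST 2 and the library labelled MPNST 6 lay below all of them. The change was 0.78 ± 0.48 against neurofibroma (95% interval -0.25 to 1.82, adjusted p = 0.202) and 2.74 ± 0.47 against nerve (adjusted p = 0.000797). Without MPNST 2 and the library labelled MPNST 6, Lox was called higher against neurofibroma at 1.17 (adjusted p = 0.011), and leaving out the library labelled MPNST 6 alone gave 1.0 (adjusted p = 0.0445).

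Loxl1, which in mice is needed to maintain elastic fibres, had the largest fold change of the 8 in both comparisons with MPNST. Its values were 12.9, 136.4 and 263.4 CPM (lowest, median, highest) in MPNST, 4.01, 7.46 and 12.8 CPM in neurofibroma, and 1.02, 2.81 and 10.1 CPM in nerve. On TMM-scaled CPM every MPNST library lay above every neurofibroma and nerve library. The lowest MPNST value, in the library labelled MPNST 6, was close to the highest neurofibroma value. Such a separation upward was seen in 7.46% of genes against neurofibroma and in 8.93% against nerve. Before scaling, MPNST 2 held 9.81 CPM, below the highest neurofibroma (13.4 CPM) and nerve (10.98 CPM) values. The change was 4.11 ± 0.67 against neurofibroma (17.3-fold, adjusted p = 0.000721) and 4.92 ± 0.83 against nerve (30.3-fold, adjusted p = 0.00071). Neurofibroma and nerve overlapped, with a change of 0.81 ± 0.47 that was not called (95% interval -0.20 to 1.83, adjusted p = 0.254).

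Loxl2, which crosslinks type IV collagen of basement membranes and carries scavenger receptor domains like Loxl3 and Loxl4, was the only member called higher in all 3 comparisons when every library was used. It ran from 18.6 over 79.7 to 119.6 CPM in MPNST, from 6.02 over 9.05 to 12.9 CPM in neurofibroma and from 2.77 over 3.59 to 5.73 CPM in nerve. On TMM-scaled CPM the 3 groups did not overlap at any step. That separation rested on the scaling of MPNST 2, whose TMM factor was 0.436. Before scaling, MPNST 2 held 8.12 CPM, within the neurofibroma range of 6.23 to 13.5 CPM and above the highest nerve value of 6.23 CPM. The change was 3.19 ± 0.38 in MPNST against neurofibroma (9.13-fold, adjusted p = 9.54e-05), 4.33 ± 0.40 in MPNST against nerve (20.1-fold, adjusted p = 1.54e-05), and 1.14 ± 0.25 in neurofibroma against nerve (2.21-fold, adjusted p = 0.0123). The library labelled MPNST 6 held 66.0 CPM of Loxl2, beside its low Lox and Loxl1, and MPNST 2 held the lowest MPNST value.

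Loxl3, a family member needed in mice for palate and cartilage development, varied most within MPNST. It was 3.49 CPM in MPNST 2, 4.19 CPM in the library labelled MPNST 6, 28.2 CPM at the median and 334.8 CPM in MPNST 4. Neurofibroma libraries held 5.94 to 15.1 CPM and nerve libraries 5.16 to 13.1 CPM. Thus 4 MPNST libraries lay above all neurofibroma and nerve libraries and 2 lay below them. The change was 2.80 ± 0.95 against neurofibroma (adjusted p = 0.0322) and 3.32 ± 0.97 against nerve (adjusted p = 0.0153). Without MPNST 4 it was 1.12 against neurofibroma, which no longer passed (adjusted p = 0.154), and 1.64 against nerve. The call against neurofibroma was also lost when any 1 neurofibroma library was left out (adjusted p = 0.0545 to 0.0676). Loxl3 overlaps Htra2 on the opposite strand, which ran from 18.03 to 56.7 CPM in MPNST, 18.3 to 23.5 CPM in neurofibroma and 14.8 to 17.2 CPM in nerve.

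Loxl4 was the lowest member per length and was called in no comparison when every library was used. It had 1.73 to 9.53 CPM in MPNST, 1.11 to 4.01 CPM in neurofibroma and 0.724 to 5.02 CPM in nerve, from 12 to 183 counts in a library. MPNST 1 and 3 lay above every neurofibroma and nerve library, and the other 4 overlapped both groups. The change was 1.12 ± 0.51 in MPNST against neurofibroma (95% interval 0.00 to 2.23, adjusted p = 0.0979), 0.99 ± 0.56 in MPNST against nerve (adjusted p = 0.165), and -0.12 ± 0.43 in neurofibroma against nerve (95% interval -1.05 to 0.80, adjusted p = 0.87). Without MPNST 2 and the library labelled MPNST 6, the change against neurofibroma was 1.43 and passed the threshold (adjusted p = 0.0291). Without these and MPNST 4, a choice made after seeing the data, the change against nerve was 1.64 and passed (adjusted p = 0.0214).

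Among the lysyl hydroxylases, Plod1, the enzyme that hydroxylates lysines in the helical part of collagen, ran from 21.8 over 64.1 to 75.2 CPM in MPNST, from 36.6 over 46.9 to 65.3 CPM in neurofibroma and from 16.1 over 29.0 to 40.4 CPM in nerve. In neurofibroma, 5 of 6 libraries lay above every nerve library, and the change was 0.74 ± 0.19 (1.67-fold, adjusted p = 0.0251). That call was lost without neurofibroma 2 (adjusted p = 0.0589) or neurofibroma 4 (adjusted p = 0.0622). MPNST against neurofibroma gave 0.29 ± 0.29 (95% interval -0.35 to 0.93, adjusted p = 0.448), with 3 MPNST libraries above and 2, MPNST 2 and the library labelled MPNST 6, below all neurofibroma libraries. Without those 2 libraries the change was 0.55 and passed (adjusted p = 0.0139). Against nerve it was 1.02 ± 0.32 (adjusted p = 0.0202), and this call was lost without MPNST 5 (0.88, adjusted p = 0.0541).

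Plod2, the telopeptide lysyl hydroxylase, whose action leads to the stable pyridinoline type of crosslink, was called higher in both comparisons with MPNST. Its values were 8.53, 45.7 and 83.2 CPM (lowest, median, highest) in MPNST, 15.2, 16.8 and 23.1 CPM in neurofibroma, and 13.5, 16.1 and 18.1 CPM in nerve. MPNST 2 was below all neurofibroma and nerve libraries and the other 5 MPNST were above them, the library labelled MPNST 6 among these with 47.1 CPM. The change was 1.43 ± 0.35 against neurofibroma (2.70-fold, adjusted p = 0.00731) and 1.59 ± 0.35 against nerve (3.01-fold, adjusted p = 0.00361). Between neurofibroma and nerve it was 0.17 ± 0.12 (95% interval -0.08 to 0.42, adjusted p = 0.342). Plod2 transcripts occur with and without an alternative exon, and the form that includes it is the one linked to telopeptide hydroxylation. The exon, 63 bases or 21 codons on chromosome 9 (GENCODE M21, GRCm38, sense strand), is shown because the counts, summed over the gene, do not tell its 2 forms apart.
Plod2 exon: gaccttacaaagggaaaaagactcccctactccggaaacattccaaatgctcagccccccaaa

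Plod3, which adds both hydroxyl groups and sugars to collagen lysines, had the smallest called change. It ran from 34.8 over 43.6 to 65.3 CPM in MPNST, from 35.1 over 45.8 to 47.8 CPM in neurofibroma and from 30.4 over 32.8 to 45.3 CPM in nerve. All 3 ranges overlapped, with only MPNST 1 and 4 standing above the rest. MPNST against nerve was called at 0.54 ± 0.17 (1.45-fold, adjusted p = 0.0225), where the median of all genes was 0.22. That call was lost when any 1 of nerve 2, 3, 4 and 6 was left out (adjusted p = 0.0535 to 0.0633). The changes of 0.28 ± 0.16 against neurofibroma (adjusted p = 0.183) and of 0.27 ± 0.11 in neurofibroma against nerve (adjusted p = 0.127) were not called. Plod3 overlaps Znhit1 on the opposite strand, which held 17.8 to 33.3 CPM in MPNST, 30.2 to 39.5 CPM in neurofibroma and 24.4 to 32.3 CPM in nerve.

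**Figure D2:**
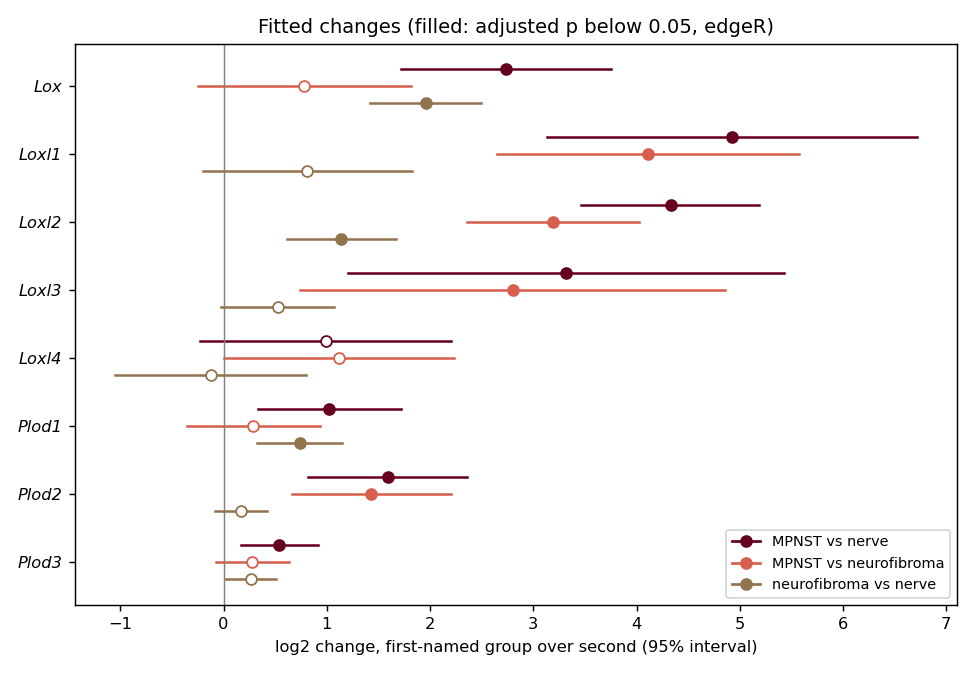
Fitted log2 change of each enzyme with its 95% interval in MPNST against nerve, MPNST against neurofibroma and neurofibroma against nerve; filled points passed an adjusted p of 0.05. The largest changes are Loxl1 at 4.92 and Loxl2 at 4.33 in MPNST against nerve, and Loxl4 has no filled point.

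The counts of called members rested partly on which MPNST libraries were used. Without MPNST 2 and the library labelled MPNST 6, 7 of 8 enzymes rose against neurofibroma, where 30.7% of all tested genes rose, and 7 of 8 rose against nerve, where 32.9% did. The member that then did not pass against neurofibroma was Plod3. The median change of all genes was 0.07 in that fit against neurofibroma. In neurofibroma against nerve, a single fit of all 18 libraries, in which the wide spread of MPNST enters, left 0 of 8 members called by edgeR against 3 at an unadjusted p below 0.05, and 2 of all tested genes rose. Its adjusted p was 0.176 for Lox, 0.315 for Loxl2 and 0.469 for Plod1, while DESeq2 and limma-voom on the pair of groups each called 3 members. The sample numbers in the table's header run upward in 2 series with 3 libraries of each group in each, which no label explains. Mean log2 differences of neurofibroma minus nerve within the 2 series were 1.56 and 2.09 for Lox and 0.81 and 1.15 for Loxl2. For MPNST minus neurofibroma they were 3.50 and 3.06 for Loxl1, 2.61 and 3.02 for Loxl2, 0.85 and 1.32 for Plod2 and 1.86 and 0.44 for Loxl3. The sign differed between the 2 series in 3 cases: Lox (1.04 and -0.23) and Plod3 (0.40 and -0.11) for MPNST minus neurofibroma, and Loxl4 (-0.69 and 0.64) for neurofibroma minus nerve.

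**Figure D3:**
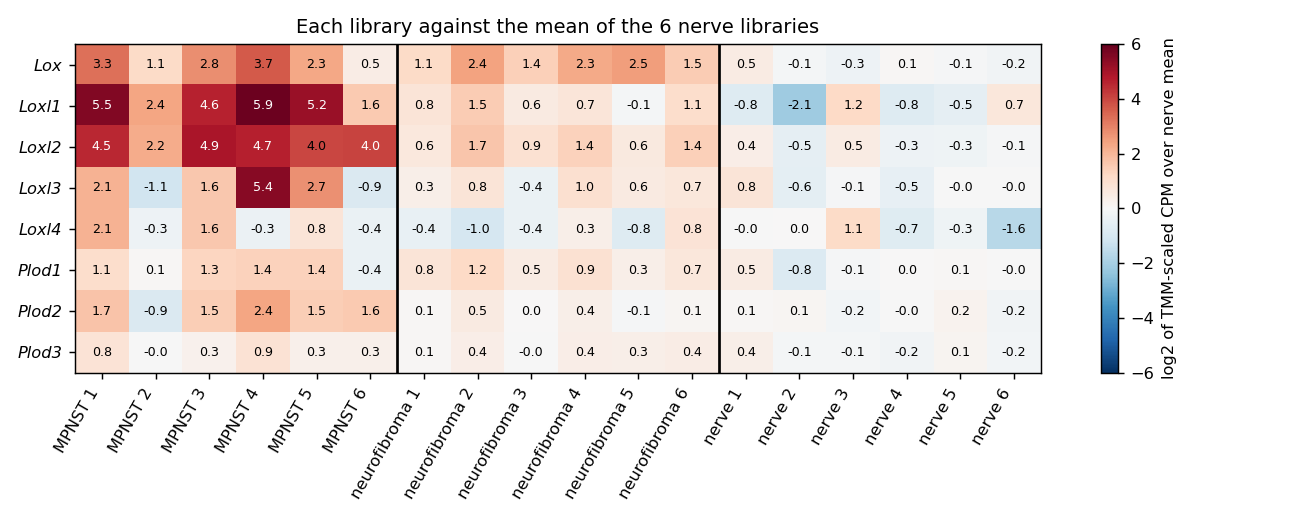
Log2 of each library's TMM-scaled CPM over the mean of the 6 nerve libraries (colour and printed value) for the 8 enzymes, with MPNST left, neurofibroma in the middle and nerve right. The Loxl2 row is high in all 6 MPNST, whereas MPNST 2 and the library labelled MPNST 6 are near the nerve mean for Plod1 and below it for Loxl3.

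Per kilobase of the longest coding transcript, which allows genes to be compared, the make-up of the oxidase family differed between the groups. The 5 lysyl oxidases summed to 90.2 ± 72.7 CPM per kb in MPNST, 17.9 ± 4.95 CPM per kb in neurofibroma and 7.23 ± 1.78 CPM per kb in nerve (SD, n = 6 each). Lox held 21% ± 6.86 of that sum in MPNST, 57.2% ± 9.81 in neurofibroma and 38.03% ± 9.65 in nerve. It was the most abundant oxidase in 0 of 6 MPNST, in 6 of 6 neurofibromas and in 5 of 6 nerves. Loxl1 led in 4 of 6 MPNST, with Loxl2 leading in the library labelled MPNST 6 (57.9%) and Loxl3 in MPNST 4 (37.97%). Loxl1 held 40.8 ± 13.6% in MPNST, 14.1 ± 4.89% in neurofibroma and 17.4 ± 11.2% in nerve. Loxl4 held the smallest mean share in all 3 groups, 1.80% in MPNST, 3.40% in neurofibroma and 8.28% in nerve.

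The 3 lysyl hydroxylases summed to 44.4 ± 15.2 CPM per kb in MPNST, 33.02 ± 4.95 CPM per kb in neurofibroma and 23.9 ± 3.98 CPM per kb in nerve. Plod3 was the most abundant in 6 of 6 nerves, while Plod1 led in 4 of 6 neurofibromas and in 3 of 6 MPNST, the others being led by Plod3. Plod2 was the smallest of the 3 on average in every group, with 27.1 ± 9.85% in MPNST, 14.9 ± 0.733% in neurofibroma and 18.4 ± 2.97% in nerve. The oxidase sum thus exceeded the hydroxylase sum on average in MPNST and lay below it in neurofibroma and nerve. That order did not hold in every MPNST. Oxidase sums there ran from 17.5 to 215.2 CPM per kb and hydroxylase sums from 22.2 to 65.8 CPM per kb. These shares and sums are descriptions without a test.

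The fibrillar collagens, which are the main substrate of both families, were highest in MPNST as a sum. Counts of 11 fibrillar collagen genes summed to 7260 ± 4823 CPM in MPNST, 1515 ± 502.0 CPM in neurofibroma and 589 ± 141 CPM in nerve (SD, n = 6 each). The 2 MPNST with the least were MPNST 2 (1575 CPM) and the library labelled MPNST 6 (1078 CPM), which also held the least Lox and Loxl1. Per 1000 of those collagen counts there were 6.52, 12.9 and 19.4 counts of Lox in MPNST (lowest, median, highest), 21.4, 27.8 and 77.5 in neurofibroma, and 15.8, 20.8 and 29.6 in nerve. On this scale MPNST lay below all neurofibromas for Lox, although its CPM was higher at the median.

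Loxl1 had 10.8, 15.3 and 32.0 counts per 1000 collagen counts in MPNST, 4.32, 5.40 and 6.12 in neurofibroma and 2.55, 5.24 and 17.03 in nerve. All MPNST were above all neurofibromas, and nerve 3 lay within the MPNST range. Loxl2 had medians of 11.8 in MPNST, 6.24 in neurofibroma and 6.88 in nerve, and the library labelled MPNST 6 reached 61.2. Loxl3 had medians of 3.22 in MPNST, 7.66 in neurofibroma and 12.4 in nerve, and Loxl4 of 0.718 in MPNST, 1.43 in neurofibroma and 3.02 in nerve. The hydroxylases showed the same order of medians, lowest in MPNST and highest in nerve. A gene that rises less than the collagen sum takes this order by division alone. The sum averaged 589 CPM in nerve, 1515 CPM in neurofibroma and 7260 CPM in MPNST. Plod3 averaged 35.4, 43.1 and 48.6 CPM in those groups, so its falling ratio is no fall in its own level. Plod1 had medians of 8.35 in MPNST, 32.9 in neurofibroma and 46.6 in nerve, with no overlap between the 3 groups. How many of all genes separate in this way on the collagen scale was not counted. Plod3 had medians of 6.41 in MPNST, 28.5 in neurofibroma and 60.3 in nerve, and Plod2 of 4.95 in MPNST, 12.7 in neurofibroma and 26.2 in nerve. The library labelled MPNST 6 held 43.7 for Plod2, above every nerve library. These ratios were not tested, since collagen genes enter every one of them.

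**Figure D4:**
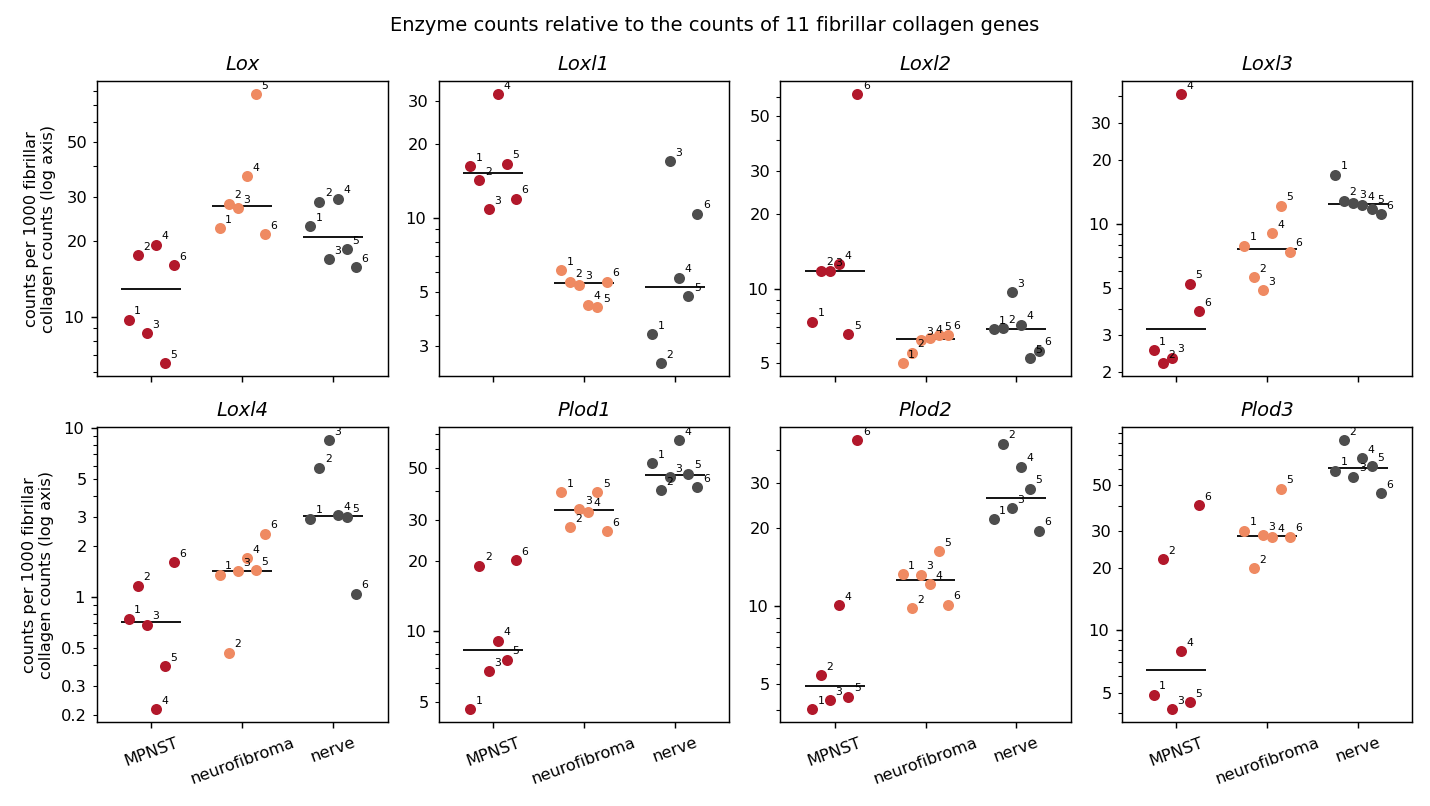
Counts of each enzyme per 1000 counts of the 11 fibrillar collagen genes (log axis) by library, with lines at group medians and library numbers beside the points. Loxl1 is higher in MPNST (median 15.3) than in neurofibroma (5.40), while Plod1 is lowest in MPNST (8.35) and highest in nerve (46.6). The collagen sum that divides each count is itself highest in MPNST and lowest in nerve.

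The list counts given from here on are read beside the shares of all tested genes. In MPNST against neurofibroma 25.3% rose and 16.8% fell, and in MPNST against nerve 27.6% rose and 18.4% fell. In neurofibroma against nerve 7.94% rose and 6% fell. No list was tested as a set. Among the genes that make and modify collagen, 7 of 11 fibrillar collagens rose in neurofibroma against nerve, with a list median of 1.41. Col3a1, a chain of type III collagen, averaged 237 ± 103 CPM in neurofibroma and 56.5 ± 28.7 CPM in nerve (SD, n = 6 each; log2 change 2.04, adjusted p = 0.0117). Against neurofibroma, 5 of 11 rose in MPNST and 2 fell, with Col3a1 the largest rise (3.27, adjusted p = 0.0014) and Col2a1, the cartilage collagen, the largest fall (-3.54, adjusted p = 0.00784). Against nerve, 6 of 11 rose and 2 fell in MPNST. The falls were Col24a1 (-2.55, adjusted p = 0.0461) and Col2a1, and without MPNST 2 and the library labelled MPNST 6 neither passed (adjusted p = 0.0697 for Col24a1 and 0.0514 for Col2a1). Col1a2, the fibrillar collagen with the highest level, rose in all 3 comparisons, by 2.15 in MPNST against neurofibroma, 3.56 in MPNST against nerve and 1.41 in neurofibroma against nerve (adjusted p = 0.0101, 0.0013 and 0.0169).

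The basement membrane and other collagens, substrates of Loxl2 among them, gave 11 rises and 1 fall among 19 tested in MPNST against neurofibroma, 14 and 1 of 20 against nerve, and 11 and 1 of 20 in neurofibroma against nerve. Col4a1, the most abundant of them, averaged 547.8 ± 295.0 CPM in MPNST, 195.9 ± 40.6 CPM in neurofibroma and 103 ± 33.9 CPM in nerve. It rose by 1.56 in MPNST against neurofibroma (adjusted p = 0.00787) and by 0.91 in neurofibroma against nerve (adjusted p = 0.016). Col7a1, which forms anchoring fibrils, had the largest fitted rise in MPNST (4.45 against neurofibroma, adjusted p = 0.0166). Without MPNST 2, MPNST 4 and the library labelled MPNST 6 its change was 0.44 and did not pass (adjusted p = 0.532).

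Prolyl hydroxylation is the parallel modification of collagen chains. Of its 10 genes 6 rose and 2 fell in MPNST against neurofibroma, 7 rose against nerve, and 6 rose in neurofibroma against nerve. P4hb, the shared subunit of the prolyl 4-hydroxylases, averaged 814 ± 719 CPM in MPNST, 185 ± 19.7 CPM in neurofibroma and 116 ± 17.7 CPM in nerve, and was called higher in every comparison (adjusted p = 0.00366, 0.000983 and 0.0045 for MPNST against neurofibroma, MPNST against nerve and neurofibroma against nerve). Of 10 glycosylation and chaperone genes, Fkbp10, a chaperone that acts with lysyl hydroxylase 2, rose by 1.97 in MPNST against neurofibroma, 3.29 in MPNST against nerve and 1.32 in neurofibroma against nerve (adjusted p = 0.00986, 0.00081 and 0.0155). Colgalt2, a collagen galactosyltransferase, fell in MPNST to 3.09 ± 3.61 CPM, against 46.0 ± 4.62 CPM in neurofibroma and 57.03 ± 12.99 CPM in nerve (adjusted p = 0.00169 and 0.00107).

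Among 8 tested genes that trim procollagen or the Lox propeptide, 5 rose and 2 fell in both comparisons with MPNST, and 1 rose and 2 fell in neurofibroma against nerve. Adamts14, a procollagen N-proteinase, had the largest rise in MPNST against neurofibroma (3.48, adjusted p = 0.00804). Pcolce2, an enhancer of procollagen C-proteinase, fell to 1.69 ± 0.526 CPM in MPNST, against 26.6 ± 3.12 CPM in neurofibroma (-3.85, adjusted p = 2.34e-06) and 30.8 ± 10.4 CPM in nerve (-4.09, adjusted p = 8.95e-06). Its relative Pcolce rose in neurofibroma against nerve by 1.56 (adjusted p = 0.0301).

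Elastin is the other substrate of Lox and Loxl1, and its list also holds genes of microfibrils and elastic fibre assembly. The elastic fibre list gave 13 rises and 1 fall of 17 in MPNST against neurofibroma and 12 rises of 17 against nerve. In neurofibroma against nerve 4 of 17 rose. These are thus not counts of substrate genes alone. The microfibril protein Mfap4 averaged 44.8 ± 46.8 CPM in MPNST and 1.402 ± 1.19 CPM in neurofibroma (5.07, adjusted p = 0.00135). Fbln5, a fibulin that tethers Loxl1 to elastic fibres, went the other way, with 41.9 ± 36.2 CPM in MPNST and 133.5 ± 9.05 CPM in neurofibroma (-1.56, adjusted p = 0.0325). In neurofibroma against nerve the largest rise was Fbn2, a microfibril gene (2.40, adjusted p = 0.00332).

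The oxidases depend on copper delivery. Of its 8 genes 1 rose in MPNST against neurofibroma, Ccs, the copper chaperone of superoxide dismutase (0.93, adjusted p = 0.0212), where 25.3% of all tested genes rose. Against nerve 2 of 8 rose in MPNST, where 27.6% of all tested genes rose, and 1, the copper pump Atp7b, fell (-1.57, adjusted p = 0.0307). The copper counts in MPNST thus did not exceed the shares of all genes. Against nerve, 3 of 8 rose in neurofibroma, where 7.94% of all tested genes rose, Steap4, a metalloreductase, by the most (1.63, adjusted p = 0.00459). The copper importer Slc31a1 averaged 56.3 ± 34.1 CPM in MPNST, 37.1 ± 2.25 CPM in neurofibroma and 31.6 ± 1.78 CPM in nerve and did not pass (edgeR adjusted p = 0.12, 0.0518 and 0.0524 for MPNST against neurofibroma, MPNST against nerve and neurofibroma against nerve).

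The small leucine-rich proteoglycans, which bind collagen fibrils, went both ways in MPNST against neurofibroma, with 2 rises and 1 fall of 9. These counts lay near the shares of all tested genes, of which 25.3% rose and 16.8% fell. Aspn rose by 4.06 (adjusted p = 0.00082), and Ogn fell to 22.9 ± 28.4 CPM in MPNST, against 637 ± 79.0 CPM in neurofibroma (-4.66, adjusted p = 0.00134). Against nerve, 3 of 9 rose in neurofibroma, with Lum the largest (2.03, adjusted p = 0.0242). Of 4 tested genes of other crosslinking enzymes, the transglutaminases Tgm2 and F13a1, the peroxidasin Pxdn and the copper amine oxidase Aoc3, all but Aoc3 rose in MPNST against neurofibroma (adjusted p = 0.128 for Aoc3), and 4 of 4 rose against nerve. Pxdn, the peroxidasin that crosslinks type IV collagen, averaged 118 ± 84.0 CPM in MPNST, 30.3 ± 4.18 CPM in neurofibroma and 36.8 ± 9.70 CPM in nerve (2.03 against neurofibroma, adjusted p = 0.0018). F13a1, a transglutaminase of plasma and macrophages, averaged 82.1 ± 46.3 CPM in MPNST and 7.70 ± 1.76 CPM in neurofibroma (3.53, adjusted p = 0.000281), and the 6 macrophage markers summed to 84.5 to 1835 CPM in MPNST against 91.3 to 195.6 CPM in neurofibroma.

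Of the genes of the TGF-beta axis, a pathway known to induce lysyl oxidases in fibroblasts, 9 of 14 rose in MPNST against neurofibroma, 11 of 14 against nerve, and 1 of 14 in neurofibroma against nerve. Tgfb1, the ligand, averaged 46.9 ± 29.2 CPM in MPNST and 4.88 ± 2.01 CPM in nerve (3.32, adjusted p = 0.000261). The gene that rose in neurofibroma was Tgfbi, a TGF-beta target, with 119 ± 37.8 CPM in neurofibroma and 34.1 ± 12.3 CPM in nerve (1.77, adjusted p = 0.00494). Lox and Plod2 are known targets of the hypoxia response. Of its 12 genes 3 rose and 1 fell in MPNST against neurofibroma, where 25.3% of all tested genes rose and 16.8% fell. Against nerve 4 rose and 3 fell in MPNST, where 27.6% of all tested genes rose and 18.4% fell. In neurofibroma against nerve 1 of 11 rose and 1 fell, where 7.94% of all tested genes rose and 6% fell. These hypoxia counts lay near the shares of all genes and were not tested against them. Ankrd37 rose by 2.56 in MPNST against neurofibroma (adjusted p = 0.00359). Ndrg1, also a gene of myelinating Schwann cells, fell to 105 ± 85.2 CPM in MPNST, against 1019 ± 168 CPM in neurofibroma (-3.20, adjusted p = 0.000558), beside the lower summed Schwann cell markers given above.

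**Figure D5:**
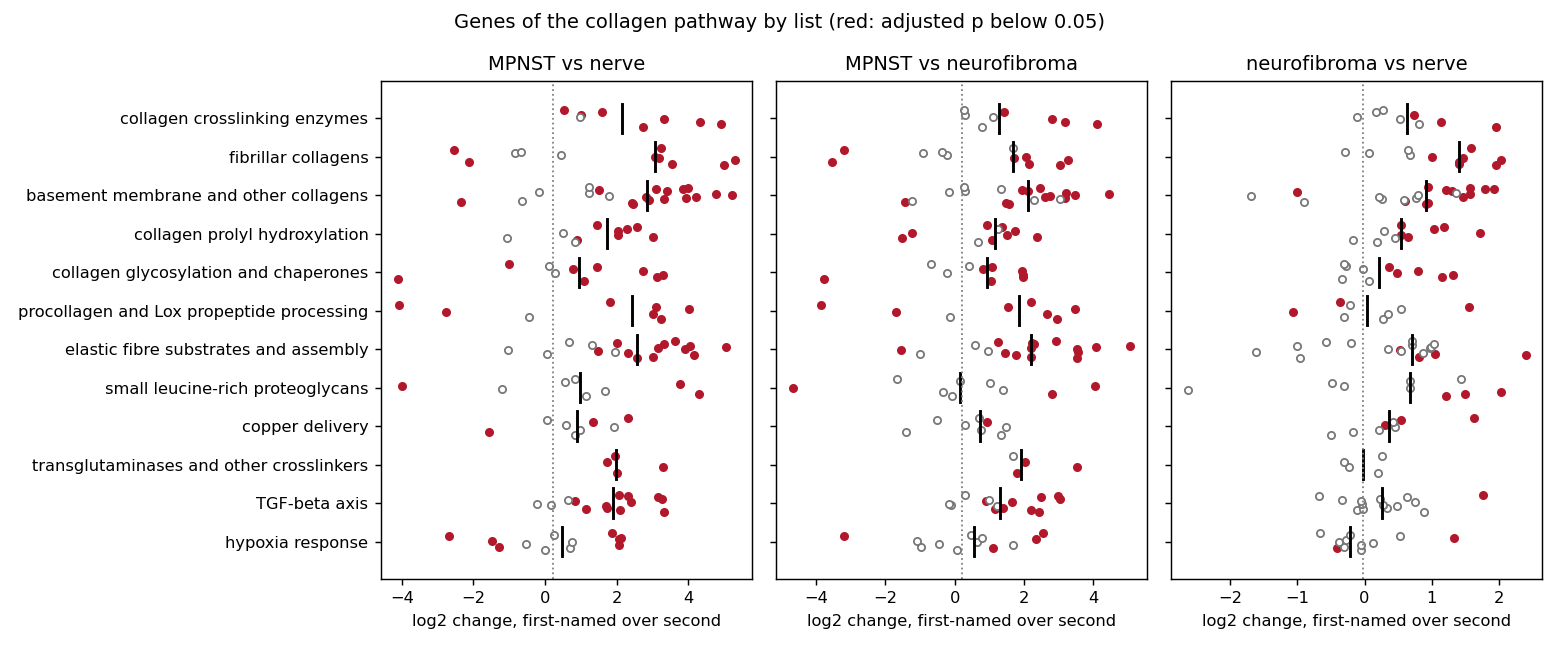
Log2 change of each tested gene by list in MPNST against nerve, MPNST against neurofibroma and neurofibroma against nerve; red points passed an adjusted p of 0.05, black bars are list medians and the dotted line is the median of all tested genes. Fibrillar collagens have medians of 3.07 in MPNST against nerve, 1.67 in MPNST against neurofibroma and 1.41 in neurofibroma against nerve, and the crosslinking enzymes of 2.16, 1.27 and 0.63 in those comparisons.

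Each enzyme was set beside the genes whose log2(CPM + 1) was most like it over all 18 libraries, among 13981 genes. These correlations are descriptions: the points share the 3 groups and the library scaling. Loxl1 was most like Lsp1 (Pearson r = 0.986, and 0.946 after the group means were taken out) and Ppic (0.984 and 0.940). Loxl2 was most like Ifitm2 (0.979 and 0.827) and Rara (0.978 and 0.798). Loxl3 was most like Ext1 (0.960 and 0.953), whose highest value of 190.0 CPM lay in MPNST. Plod2 was most like Ssh2 (0.982 and 0.966) and Plod1 most like Utp11 (0.966 and 0.947) and Tgfbi (0.949 and 0.932). Likeness was weaker for Lox, whose nearest genes were Txndc12 (0.903 and 0.714) and Ccn4 (0.895 and 0.885), for Plod3 (Nde1, 0.857 and 0.779) and for Loxl4 (Clec11a, 0.786 and 0.756).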

How the data were processed

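Bulk poly(A) RNA-seq libraries of 18 mouse samples were made with a stranded kit, per the labels' protocols. The authors deposited 1 table of estimated counts per gene, not normalized; Salmon 1.4.0, FastQC, DESeq2 and GRCm39 are named in the submitters' processing notes. The sources used here do not give the annotation or Salmon's settings. Groups come from the labels; 0 columns had no sample, and replicate numbers pair nothing. Where labels do not tie a sample to its own animal, p-values measure only spread between samples. Counts were rounded and 51290 genes read; 0 of 45 within-group pairs of libraries were identical. Each pair of groups was fitted alone by the two-sided quasi-likelihood test of edgeR 4.0.16 (R 4.3.3; TMM scaling, filterByExpr), tested on simulated data. SE is derived from the test's F. Counting error alone is 2.05% for the 2376 Lox counts of MPNST 1 and larger at lower counts, since the labels mention no molecular identifiers. Lengths and sequences are GENCODE M21 (GRCm38). Members, 11 pathway lists (128 genes) and 16 marker lists (96 genes) were chosen with earlier results of these data known. Pathway genes named are, per list and comparison, the called gene with the largest change each way and that of highest level; likeness names the 2 nearest genes with an own symbol. Alternatives used limma 3.58.1 and DESeq2 1.42.0.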

Additional observations from a re-analysis of the deposited data

Results flagged for a closer look

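In 3 of 24 combinations of enzyme and group, 1 library stood apart from the other 5 by a gap larger than Dixon's 95% critical value of 0.625 of the group's range; chance alone gives about 1 in 20. MPNST 4 held 334.8 CPM of Loxl3, where the next MPNST held 51.0 CPM. This library also held the highest Cdkn2a (615.6 CPM) and the lowest summed Schwann cell markers (58.4 CPM). Its summed fibroblast and perineurium markers were the highest (1556 CPM), but 1 of those 7 markers, Pdgfra, made up 1332 CPM of that sum. The part of these genes in the Loxl3 value was not tested. Nerve 1 held 13.1 CPM of Loxl3, where the next nerve held 7.66 CPM. Nerve 3 held 5.02 CPM of Loxl4, where the next nerve held 2.33 CPM.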

How the results depend on the processing

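No paired analysis was possible because the replicate numbers were given in accession order and pair no samples. In neurofibroma against nerve, the 3 members higher became 0 in one fit of all 18 samples and 1 at an adjusted p below 0.01, and ranged from 2 to 5 when 1 library was left out (5 without nerve 1). Loxl4 changed sign there, with 0.01 without neurofibroma 2 and 0.28 without nerve 3, over a range of -0.43 to 0.28 when 1 library was left out. In MPNST against neurofibroma, the 4 members higher became 7 without MPNST 2 and the library labelled MPNST 6, 7 without these and MPNST 3, and 7 without these and MPNST 4 (the last chosen after seeing the data), and ranged from 3 to 6 when 1 library was left out. In MPNST against nerve, the 7 higher became 4 at an adjusted p below 0.01 and 8, Loxl4 included, without MPNST 2, MPNST 4 and the library labelled MPNST 6, and ranged from 6 to 7 when 1 library was left out. Loxl1, Loxl2 and Plod2 kept their calls in both comparisons with MPNST at the 0.05 threshold under every alternative run. Loxl3 against neurofibroma was also lost with no low-count filter (2.69, adjusted p = 0.0528) and with the series of columns as a term (2.43, adjusted p = 0.0765, chosen after seeing the data), and Plod3 and Plod1 against nerve were lost with no filter (0.40 and 0.87). The cause was not tested. Over all genes, leaving out 1 library gave 618 to 1956 higher and 529 to 1861 lower in neurofibroma against nerve, where the other settings gave 2 to 2113 higher and 0 to 1913 lower; in MPNST the other settings gave 2314 to 5840 higher and 1749 to 5525 lower against neurofibroma, and 2701 to 5783 higher and 1932 to 5498 lower against nerve. With limma-voom 4707 genes were higher and 5040 lower in MPNST against neurofibroma, and 5140 higher and 5242 lower against nerve, and the median of all genes was -0.01 in both. Depth limits Loxl4 most, with as few as 12 counts in a library.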
